A study of Mus musculus with 9 samples.

Results

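Lymphomas with a high level of T-cell transcripts were compared with lymphomas with a low level. For each of the 9 tumors of the series the counts of Cd3d, Cd3e and Cd3g, which encode the signaling chains of the T-cell receptor complex, were scaled to CPM, the count relative to the library total, and summed. The 4 tumors with the highest sum were called T-cell-rich, the 4 with the lowest sum T-cell-poor, and the middle tumor was left out, so that 8 of 9 tumors entered the comparison. The groups were thus chosen by these measured sums, which are given as a description, with no test. All other genes were then tested for a difference between the groups, with both genotypes pooled, and each difference is an association with the CD3 level measured in the same libraries.

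Every mouse carried IµBcl6, which drives Bcl6 in B cells from a transgene, together with Cγ1-Cre, which recombines in B cells activated to enter the germinal center. The Bcl6 tumors (ImicroBcl6 Smc3 wt/wt) kept both Smc3 alleles, and the Smc3/Bcl6 tumors (ImicroBcl6 Smc3 wt/-) came from mice in which Cre deletes 1 Smc3 allele in those B cells only, so that T cells and other host cells of the tumor keep both. RNA came from lymph node lymphomas, 1 library per tumor, and the sources used here name no sort that would leave out host cells. The labels give neither age nor the time to disease.

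B-cell lymphomas derived from the germinal center, and their mouse models, can grow in lymph nodes that also hold T cells, macrophages and stroma. CD8 T cells kill target cells through perforin and granzymes and secrete interferon gamma, to which macrophages and other cells respond by making the chemokines Cxcl9 and Cxcl10, ligands of a receptor on activated T cells. Follicular helper and regulatory T cells act on germinal center B cells, which depend on the repressor Bcl6.

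The T-cell-rich tumors were, from the highest CD3 sum down, Bcl6 tumor 2 (1236 CPM of the library total), Smc3/Bcl6 tumor 3 (1056 CPM), Bcl6 tumor 3 (897 CPM) and Smc3/Bcl6 tumor 2 (887 CPM). The T-cell-poor tumors were Bcl6 tumor 1 (58.2 CPM), Smc3/Bcl6 tumor 4 (53.9 CPM), Smc3/Bcl6 tumor 6 (41.8 CPM) and Smc3/Bcl6 tumor 1 (14.8 CPM). Smc3/Bcl6 tumor 5 lay between them with 408 CPM and was left out. The lowest T-cell-rich tumor had 15.3 times the sum of the highest T-cell-poor tumor. In bulk RNA, fewer T cells and less T-cell RNA per cell cannot be told apart. Ranking by the receptor constant genes Trac, Trbc1 and Trbc2 gave the same 2 groups. In the lists below, values of single tumors follow this order of CD3 level within each group.

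The groups held 2 Bcl6 and 2 Smc3/Bcl6 tumors (T-cell-rich) and 1 Bcl6 and 3 Smc3/Bcl6 tumors (T-cell-poor), for which Fisher's exact test gave a two-sided p = 1. In a design of this size no split of the genotypes could give a p below 0.05, so the test cannot decide whether the T-cell level follows the genotype. The T-cell-rich tumors are replicates 2 and 3 of both genotypes, the T-cell-poor ones replicates 1, 1, 4 and 6, so anything that same-numbered tumors shared cannot be told apart from the T-cell level. Per the labels, the tissue was mesenteric lymph node in tumor 1 of either genotype and lymph node in the other 7, and both tumors labelled mesenteric were T-cell-poor. The study's text names the mesenteric node for its RNA-seq lymphomas without this distinction, so the label may not mark a difference of site. Library totals ranged from 10156728 to 17774577 counts. Smc3/Bcl6 tumor 2 stood apart from the rest. Across genes, long exons went with low values in this library (Spearman correlation of exon length with the gene's deviation -0.487, as a description; the other 8 tumors lay between -0.027 and 0.289), and its TMM factor, which corrects library size for composition, was 0.729 against 0.949 to 1.10. Smc3 itself had 99.9, 107, 87.1 and 26.5 CPM in the T-cell-rich and 127, 88.9, 110 and 108 CPM in the T-cell-poor tumors, the low value being that of Smc3/Bcl6 tumor 2. Its log2 fold change was -0.44 (SE 0.39, adjusted p = 0.585).

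From here on CPM are scaled by TMM, and log2 fold changes are T-cell-rich minus T-cell-poor, from the quasi-likelihood test of edgeR, with p-values adjusted by Benjamini-Hochberg over 13256 genes. At an adjusted p below 0.05, 336 genes (2.53%) were higher and 16 (0.121%) lower in T-cell-rich tumors, 2.66% of genes in either direction. At the looser thresholds of the study's own differential test (unadjusted p below 0.1, absolute log2 fold change above 0.56) 11.1% were higher and 9.66% lower. The median log2 fold change over all genes tested was -0.07, and 45.6% of them were positive. Values of the groups did not overlap for 334 of the 336 higher and all 16 lower genes; over all genes tested, 5.76% lay wholly above and 6.61% wholly below. The higher genes had log2 fold changes from 1.04 to 10.95 with a median of 3.64. The largest is that of Tpsb2, which had 0 counts in all T-cell-poor tumors, so only a bound of at least 8.44 can be given. Genes near 0 in either group passed the filter on low counts through the other group, so their direction was set by the filter. Among the genes named below these include Wdr95, Dapl1, Icos, Ccl2, Ccr8, Cpa3, Fcer1a, Tpsb2, Cma1, Il12b and F7. In the other direction they include Rgs13 and Fgf11. Of the higher genes, 37 were T-cell receptor gene segments, 61 belonged to the lists described below, and 242 were neither.

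The number of calls depended on single tumors. The higher genes numbered 178, 209, 195, 187 and 184 without Bcl6 tumor 1, Bcl6 tumor 2, Bcl6 tumor 3, Smc3/Bcl6 tumor 3 and Smc3/Bcl6 tumor 6. The lower genes numbered 3, 4, 4 and 5 without Bcl6 tumor 2, Bcl6 tumor 3, Smc3/Bcl6 tumor 3 and Smc3/Bcl6 tumor 6, and 49 without Smc3/Bcl6 tumor 2. With the tissue label as a covariate, 102 genes were higher and 31 lower, of which 99 and 3 were also called without it. An interaction term of T-cell group and genotype was also fitted, but it cannot decide whether the difference varied between genotypes. The T-cell-poor group held 1 Bcl6 tumor, so the term rests there on 1 library.

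**Figure D1:**
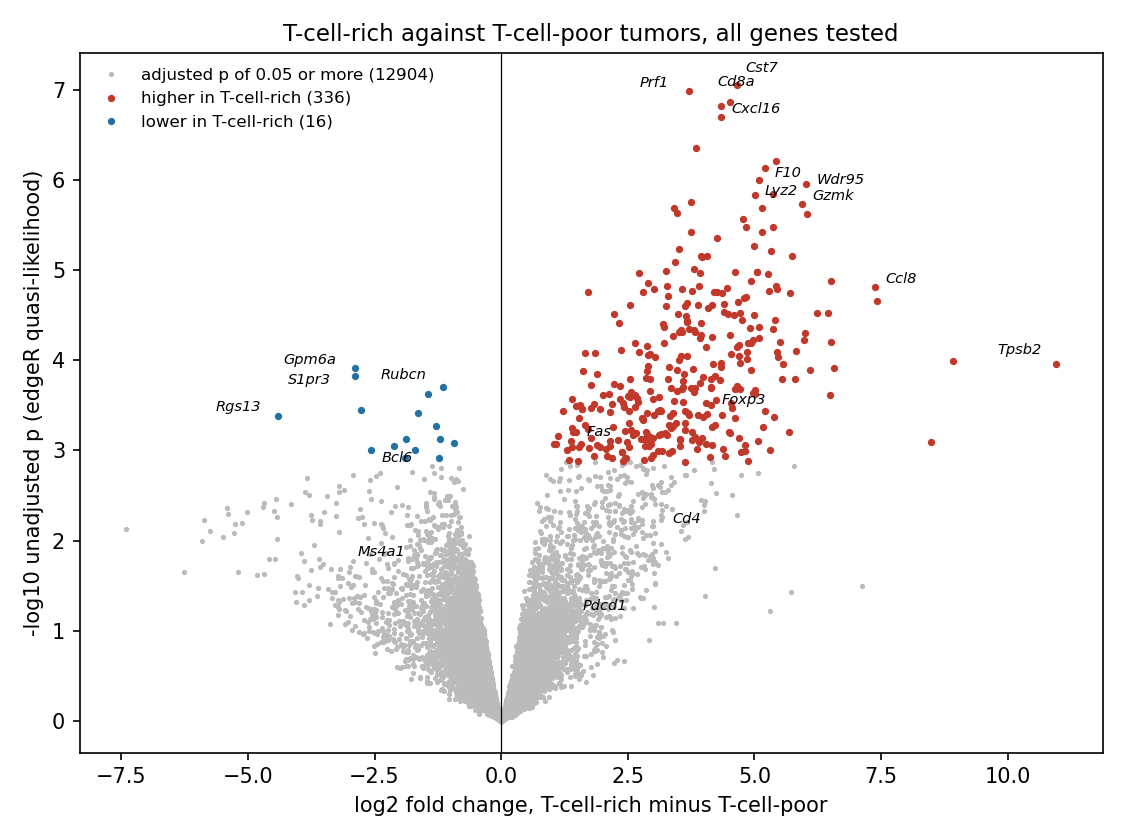
Log2 fold change (T-cell-rich minus T-cell-poor, x axis) against -log10 of the unadjusted p (y axis) for 13256 genes, 1 point per gene. The 336 genes called higher (red) reach log2 fold changes up to 10.95, a value of Tpsb2 that rests on 0 counts in T-cell-poor tumors. The 16 called lower (blue) include Rgs13 at -4.40. Bcl6, Ms4a1, Cd4 and Pdcd1 are labelled among the genes not called (grey).

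The T-cell core list, receptor constant chains, coreceptors and signaling proteins, rose most broadly: 19 of 25 members tested were higher, 0 lower, with a median log2 fold change of 4.19. Over all genes tested, the share to set beside this and each later list was 2.53% higher and 0.121% lower. These genes are expressed by the same cells as the genes used for ranking, so their direction is no independent evidence. Trac, the constant region of the receptor alpha chain, had 210, 186, 158 and 155 CPM in the T-cell-rich and 10.2, 7.98, 5.61 and 2.11 CPM in the T-cell-poor tumors (log2 fold change 4.78, SE 0.47, adjusted p = 0.00189). Trbc2, a beta-chain constant region, had 157 to 320 CPM against 2.89 to 10.9 CPM (5.14, SE 0.49, adjusted p = 0.00171). The adaptor Lat, which relays the receptor signal, had 219 ± 35.6 CPM against 7.66 ± 4.25 CPM (SD, n = 4 each), and Thy1, a surface glycoprotein of mouse T cells, 26.8 ± 2.40 against 0.997 ± 0.756 CPM (adjusted p = 0.00211 and 0.00565).

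Both chains of the CD8 coreceptor, which marks cytotoxic T cells, were among the genes with the smallest p. Cd8a (ENSMUSG00000053977.8, GRCm38 chromosome 6, 71373427 to 71379173) showed 184, 222, 271 and 241 CPM in the T-cell-rich and 12.2, 13.3, 7.51 and 6.91 CPM in the T-cell-poor tumors, a log2 fold change of 4.52 (SE 0.32, adjusted p = 0.000506). Its neighbor Cd8b1 (ENSMUSG00000053044.7, chromosome 6 from 71322788 to 71337494) had 213, 261, 248 and 301 CPM against 16.5, 14.7, 7.30 and 11.9 CPM (4.34, SE 0.32, adjusted p = 0.000531). The T-cell-rich tumors were thus close to each other in both chains. Cd4, the coreceptor of helper and regulatory T cells, was not: it had 123, 168, 34.8 and 15 CPM in the T-cell-rich and 18.1, 8.04, 9.74 and 1.97 CPM in the T-cell-poor tumors (3.17, SE 0.85, adjusted p = 0.114). Smc3/Bcl6 tumor 2 lay below Bcl6 tumor 1 in Cd4 while its Cd8a was among the highest.

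Other core genes low in that tumor were the transcription factor Tcf7 (79.9, 102, 41.8 and 7.64 CPM against 1.13 to 18.7 CPM, adjusted p = 0.217) and Bcl11b, a regulator of T-cell identity (68.3, 82.2, 44.0 and 2.91 CPM against 0.811 to 3.39 CPM). Bcl11b was called (log2 fold change 4.70, SE 0.95, adjusted p = 0.0342) although its groups overlapped, and its call was lost when any 1 of 7 tumors was left out. Whether the relation of this library to exon length has a part in these values was not tested. Of the 8 naive and memory T-cell genes, 1 was called higher, Dapl1 (4.62, SE 0.54, adjusted p = 0.00362), and the median over the list was 0.89. The summed level of that list overlapped, with 356 to 1646 CPM in T-cell-rich and 256 to 1679 CPM in T-cell-poor tumors.

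**Figure D2:**
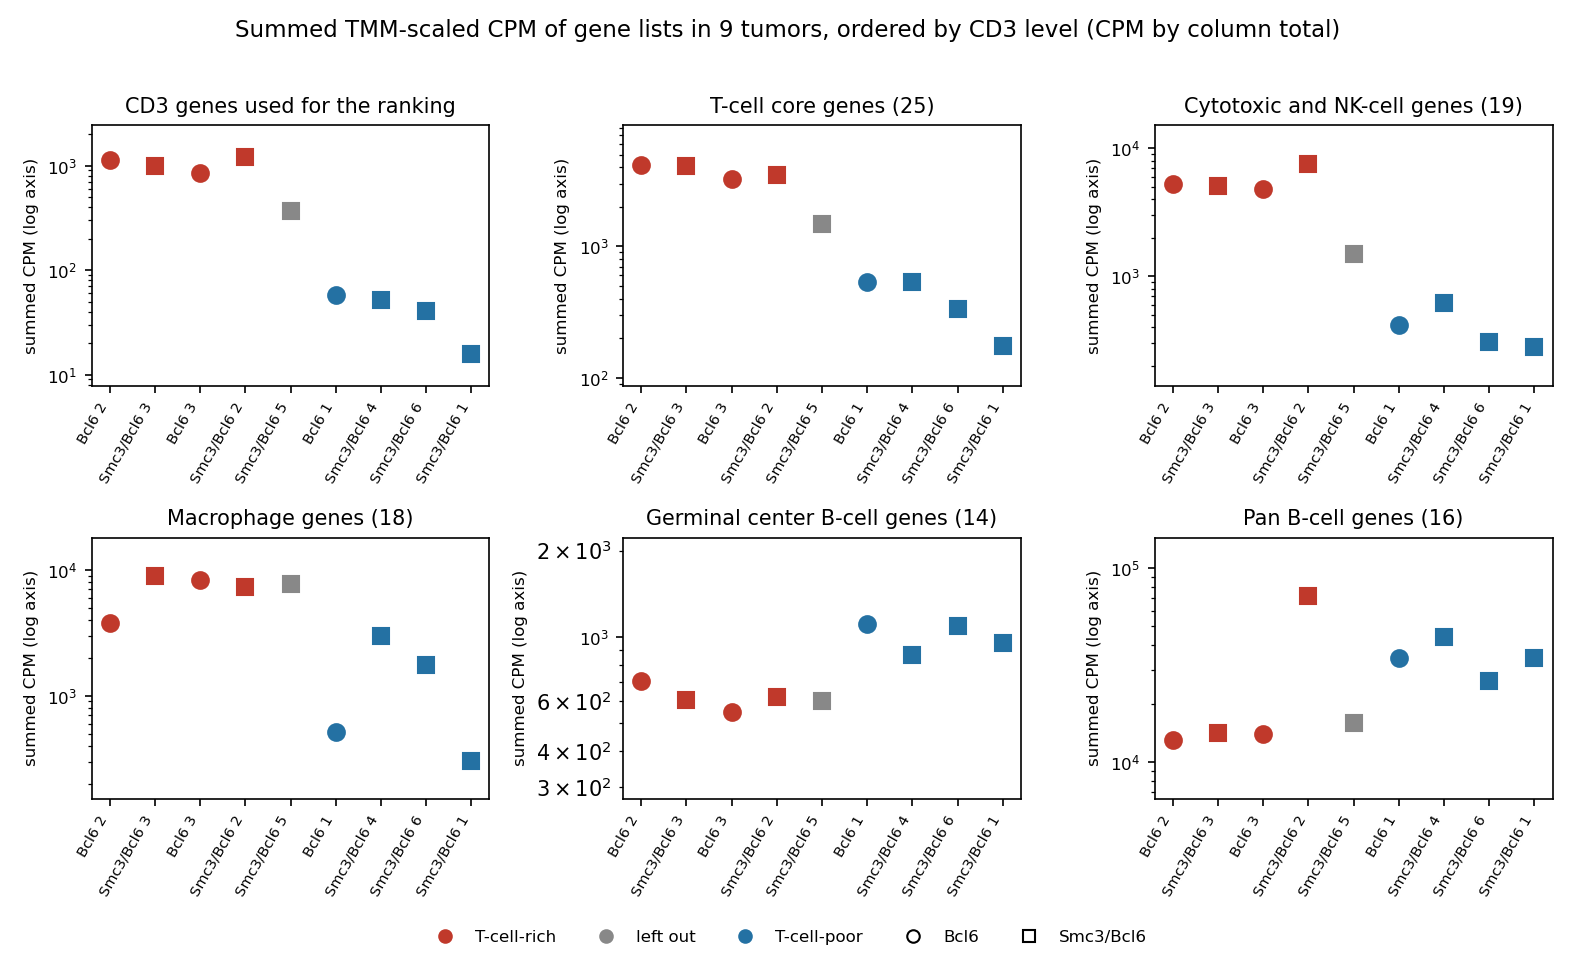
Summed TMM-scaled CPM (log axes) of 6 gene lists in each of 9 tumors, ordered along the x axis from the highest to the lowest CD3 level; color gives the group and marker shape the genotype. T-cell core, cytotoxic and macrophage sums lie higher in every T-cell-rich than in every T-cell-poor tumor. Germinal center sums lie lower, a separation that rests on Bcl6. The pan B-cell sum of Smc3/Bcl6 tumor 2 (71273 CPM, of which Ighm is 62829 CPM) stands above the other 3 T-cell-rich tumors.

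Genes of cytotoxic lymphocytes held the smallest p-values of the comparison. T cells express many genes of this list and of the regulatory, checkpoint and helper lists below, and the receptors Cxcr6 and Ccr8. Their direction is therefore no independent evidence either. Of 19 tested, 11 were higher and 0 lower (median log2 fold change 3.37), and their summed level was 4833 to 7579 CPM against 277 to 619 CPM. Cst7 (ENSMUSG00000068129.5, chromosome 2 from 150570415 to 150578944), a cystatin that restrains granule proteases, had 230, 325, 227 and 361 CPM in the T-cell-rich and 14.2, 12, 7.71 and 11.5 CPM in the T-cell-poor tumors (4.65, SE 0.31, adjusted p = 0.000506). Prf1, perforin (ENSMUSG00000037202.5, chromosome 10 from 61297833 to 61304680), had 166, 199, 192 and 175 CPM against 10.2, 18.1, 12.8 and 14.7 CPM (3.71, SE 0.25, adjusted p = 0.000506). Within each group perforin varied little, with SDs of 14.9 and 3.32 CPM.

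The granule protease Gzmb had 266, 562, 634 and 545 CPM against 20.5, 13.0, 8.79 and 6.2 CPM (5.37, SE 0.49, adjusted p = 0.00163). Gzmk, a granzyme of memory-type CD8 T cells, had 271, 161, 145 and 291 CPM against 7.5, 2.18, 2.23 and 2.25 CPM (5.95, SE 0.56, adjusted p = 0.00171), whereas Gzma overlapped between the groups (2.53, SE 0.82, adjusted p = 0.206). The chemokine Ccl5 was the most abundant gene of the list, with 2210, 1495, 1662 and 3282 CPM against 65.8, 97.8, 38.3 and 51.4 CPM (5.09, SE 0.45, adjusted p = 0.00147). Also higher were the granule protein Nkg7 (4.80, SE 0.61), interferon gamma, Ifng (5.36, SE 0.75), the death ligand Fasl (4.26, SE 0.53) and Klrg1, a receptor of effector cells (5.33, SE 0.58), with adjusted p from 0.00297 to 0.00634. Ncr1, a receptor of natural killer cells, had 1.61 to 13.1 CPM against 0.705 to 32.3 CPM (-0.63, SE 1.01, adjusted p = 0.751), with the top value in Smc3/Bcl6 tumor 4. Tcrg-C2, a constant region of the gamma chain, was higher (3.83, SE 0.65, adjusted p = 0.0150), 1 of 5 gamma-delta T-cell genes tested (median 1.26).

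**Figure D3:**
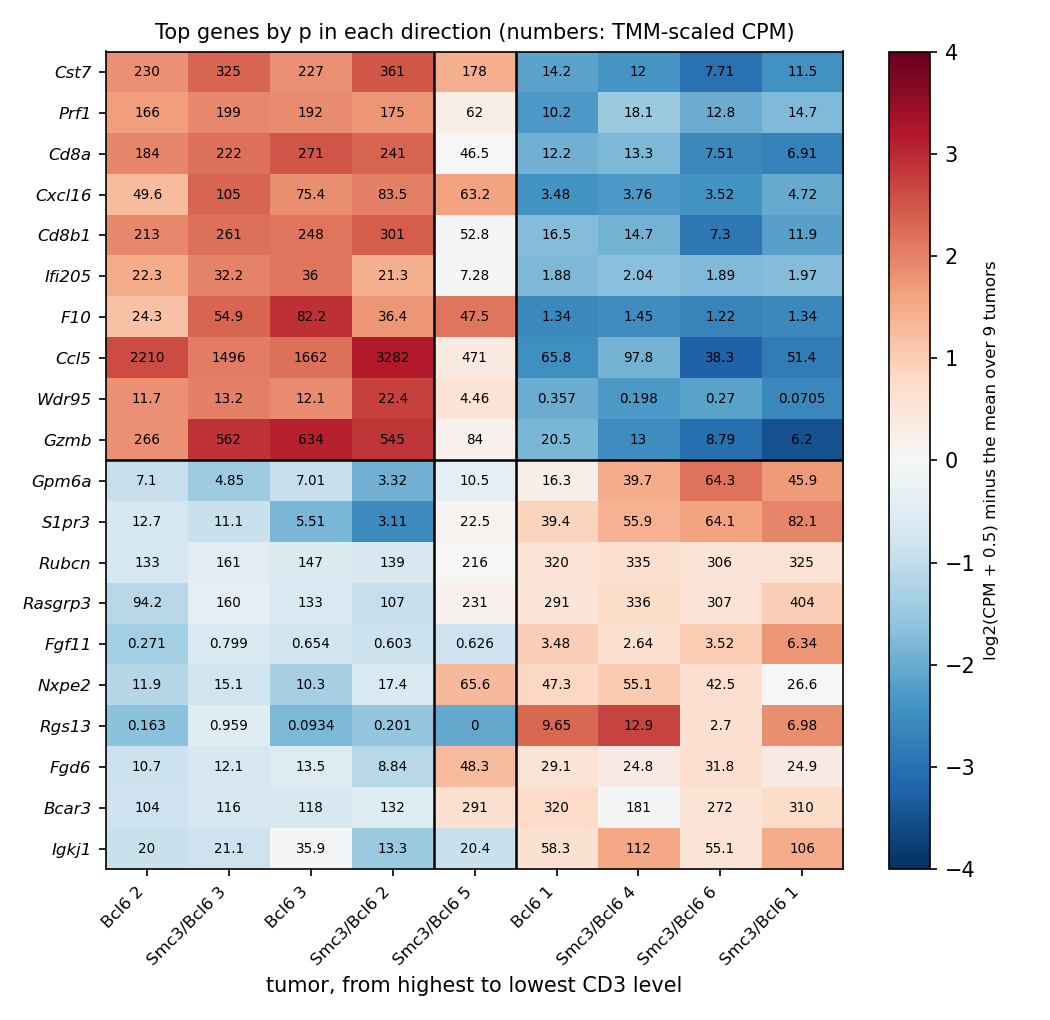
TMM-scaled CPM (numbers) of the 10 genes higher and 10 lower in T-cell-rich tumors with the smallest p, in 9 tumors ordered by CD3 level; color gives log2(CPM + 0.5) minus the gene's mean over the tumors. Smc3/Bcl6 tumor 5, left out of the test, is within the T-cell-rich range for Cxcl16 and F10, and within or above the T-cell-poor range for Nxpe2, Fgd6 and Bcar3.

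Regulatory T-cell genes were called higher for 5 of 10 tested (median log2 fold change 2.84), with a summed level of 445 to 563 CPM against 38.9 to 70.3 CPM. Foxp3, the lineage factor of these cells, had 46.9, 35.3, 51.3 and 8.84 CPM in the T-cell-rich and 3.22, 2.37, 0.473 and 1.97 CPM in the T-cell-poor tumors (4.15, SE 0.70, adjusted p = 0.0150). The groups were separate, but Smc3/Bcl6 tumor 2 was again low, and the edgeR call for Foxp3 was lost with the tissue label as a covariate (adjusted p = 0.0741). Tnfrsf4 (4.93, SE 0.59), Tnfrsf18 (2.71, SE 0.32), Ikzf2 (3.53, SE 0.74) and Tigit (2.96, SE 0.61), receptors and a transcription factor of regulatory and activated T cells, were called as well. Tnfrsf4 and Tnfrsf18 were called in all 21 other fits run, whereas the calls of Ikzf2 and Tigit were lost when any 1 of 7 tumors was left out. Ctla4 had 9.27 to 27.9 CPM against 1.52 to 5.41 CPM (adjusted p = 0.0854) and Il2ra 4.92 to 49.5 CPM against 3.24 to 7.32 CPM (adjusted p = 0.112).

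Checkpoint receptors and exhaustion genes, which mark T cells under lasting antigen contact, were called for 4 of 10 tested (median 2.23). The transcription factor Tox had 138, 79.8, 74.1 and 38.9 CPM against 9.11, 7.06, 7.23 and 10.6 CPM (3.28, SE 0.40, adjusted p = 0.00406). The inhibitory receptor Havcr2 (3.29, SE 0.54), Eomes (3.79, SE 0.60) and Nr4a2 (3.59, SE 0.59) were the other 3, with adjusted p from 0.0112 to 0.0133. Lag3 was not called, although its groups did not overlap (53.5 to 111 CPM against 4.95 to 32.1 CPM, adjusted p = 0.140). Pdcd1, the receptor PD-1, had 201, 178, 159 and 281 CPM against 79.1, 7.32, 107 and 116 CPM and was not called (1.4, SE 0.65, adjusted p = 0.398). A T-cell-poor tumor such as Smc3/Bcl6 tumor 1 thus had more Pdcd1 CPM than the sum of its 3 CD3 genes (15.6 CPM on the same scale).

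Of 11 follicular helper genes tested, which besides Pdcd1 include costimulators and signaling adaptors, 3 were higher (median 2.12). They were the costimulator Icos (3.94, SE 0.56, adjusted p = 0.00675), the adaptor Sh2d1a (5.05, SE 0.59, adjusted p = 0.00362) and Tox2 (3.00, SE 0.61, adjusted p = 0.0342). Log2 fold changes were positive for 9 of the 11 and negative for Cxcr5 (-0.56, SE 0.31) and Cd200 (-0.59, SE 0.23), neither of them called. The summed level of the list overlapped, with 542 to 858 CPM in T-cell-rich and 460 to 657 CPM in T-cell-poor tumors.

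Ratios within a library ask whether the makeup of the T-cell transcripts differed, apart from their amount. The log2 ratio of Cd8a and Cd8b1 to Cd4 was 1.68, 1.52, 3.87 and 5.05 in T-cell-rich and 0.64, 1.69, 0.56 and 2.71 in T-cell-poor tumors, 3.03 ± 1.72 against 1.4 ± 1.02 (SD, n = 4 each; exact permutation test, two-sided p = 0.229). The ratio of Foxp3 to the receptor constant genes was -4.04 ± 1.27 against -2.47 ± 0.92 (exact permutation p = 0.0857, n = 4 each), that of Pdcd1 -1.35 ± 0.22 against 1.80 ± 2.48 (p = 0.143, exact) and that of Gzmk -1.30 ± 0.29 against -1.92 ± 0.85 (p = 0.229, exact). For Pdcd1 the T-cell-rich tumors lay between -1.54 and -1.07, while the T-cell-poor tumors had 1.71, -1.63, 3.00 and 4.11. A positive ratio means more Pdcd1 than receptor constant transcripts, so in those tumors it need not measure T-cell makeup. Which cells held the Pdcd1 transcripts was not tested. With 4 against 4 tumors the smallest possible p is 0.0286. None of the 6 single measures, these 4 and the receptor shares below, differed after Benjamini-Hochberg adjustment (0.274 to 0.600), and the T-cell-poor ratios rest on few counts.

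Antigen receptor variable genes were used as a measure of how far 1 rearrangement dominates. In the T-cell-rich tumors the leading beta-chain variable gene took 19.1%, 15.1%, 13.4% and 17.9% of Trbv counts, with 20 or 21 Trbv genes counted and 1908 to 5316 counts in all. In the T-cell-poor tumors it took 22.7%, 12.7%, 29.9% and 22.2%, from 45 to 165 counts. The Wilson 95% interval of the highest of these shares, 23 of 77 counts in Smc3/Bcl6 tumor 6, ran from 20.8% to 40.8%. The group means were 16.4% ± 2.59 and 21.9% ± 7.03 (exact permutation test, two-sided p = 0.200, n = 4 each), and the leading gene was Trbv12-2, Trbv19, Trbv16 and Trbv16 in the T-cell-rich tumors.

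The kappa light chain was led by 1 variable gene to a larger share. The leading Igkv gene took 72.2%, 68.6%, 91.6% and 62.8% of Igkv counts in T-cell-rich and 77.6%, 25.5%, 61.5% and 87.9% in T-cell-poor tumors (73.8% ± 12.5 against 63.1% ± 27.4, exact permutation p = 0.600, n = 4 each). Smc3/Bcl6 tumor 4 was the exception with 25.5% in Igkv6-15. Intervals cover counting error only, and reads of near-identical variable genes may be assigned to each other.

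**Figure D4:**
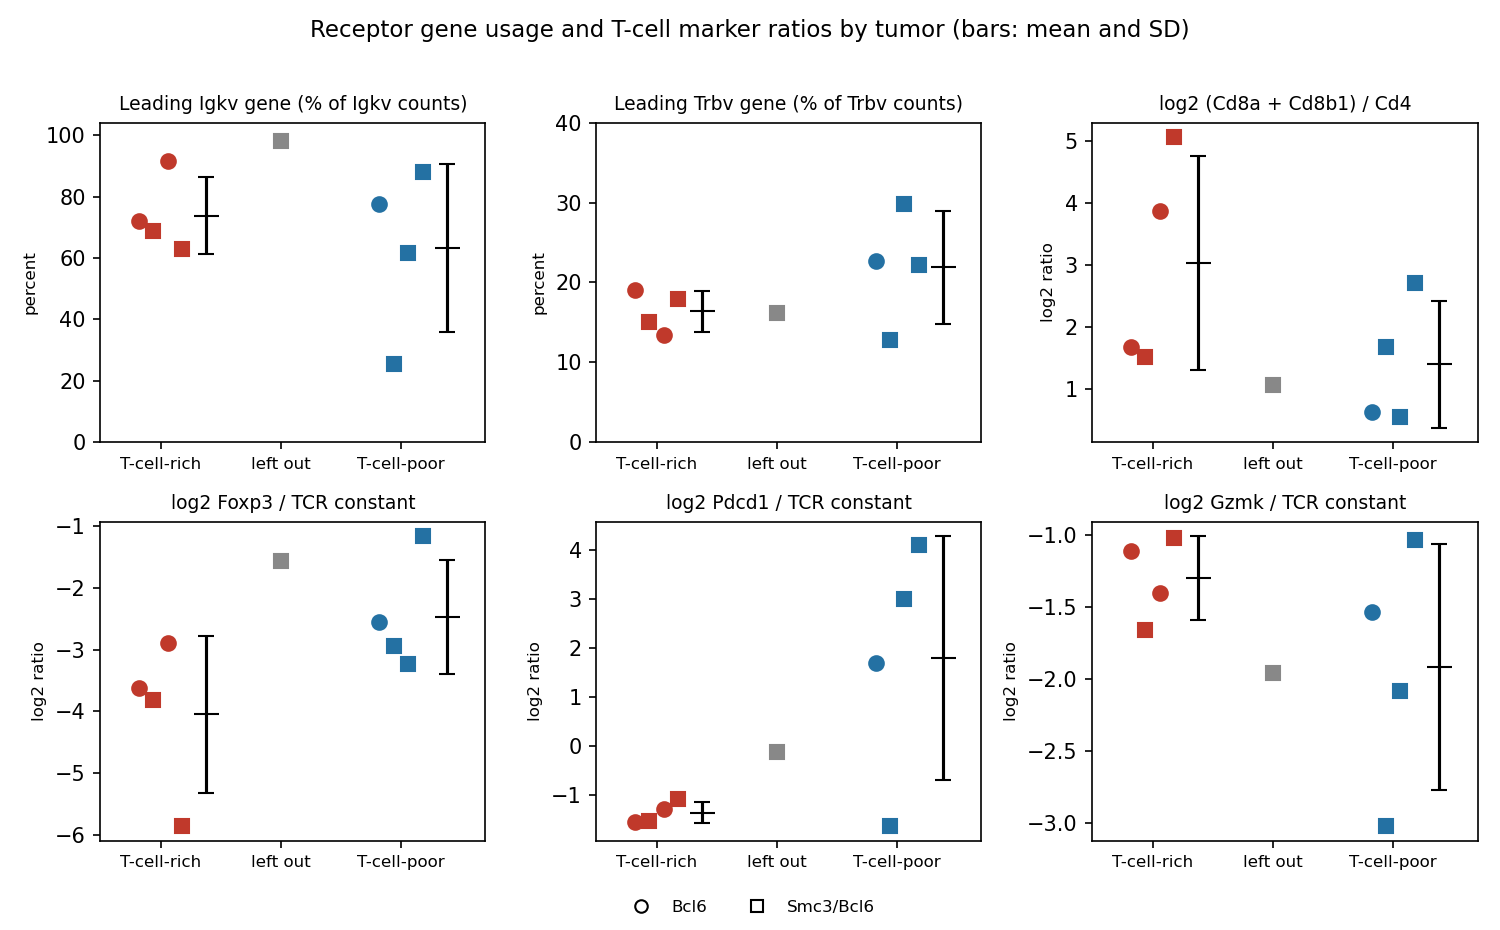
Share of variable-gene counts in the leading gene (percent) and log2 ratios of T-cell marker genes in 9 tumors, with mean and SD (bars, n = 4) beside each tested group. The groups overlap in every panel, and the Pdcd1 ratio is spread from -1.63 to 4.11 among T-cell-poor tumors but from -1.54 to -1.07 among T-cell-rich ones.

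Chemokines that attract lymphocytes were called higher for 3 of 6 ligands tested (median 3.28), and 3 of 9 receptors (median 0.50). Cxcl16 (ENSMUSG00000018920.6, chromosome 11 from 70453983 to 70459984) had 49.6, 105, 75.4 and 83.5 CPM against 3.48, 3.76, 3.52 and 4.72 CPM (4.34, SE 0.31, adjusted p = 0.000506). Its receptor Cxcr6 had 137, 230, 117 and 214 CPM against 14.5, 3.49, 2.23 and 2.04 CPM (4.98, SE 0.72, adjusted p = 0.00722). Ligand and receptor were therefore both separate between the groups. Ccl8, a monocyte chemoattractant, had 137, 313, 256 and 1271 CPM against 2.32, 2.90, 5.27 and 1.34 CPM (7.38, SE 0.90, adjusted p = 0.00406), and Ccl2 also rose (3.95, SE 0.44, adjusted p = 0.00302). The inflammatory chemokines Ccl3 and Ccl4 did not overlap between groups but were not called (adjusted p = 0.145 for both), whereas the receptor Ccr8 was (5.07, SE 1.03, adjusted p = 0.0349).

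Of 17 interferon-induced genes, 4 were called higher and 0 lower (median 1.17), against 2.53% higher and 0.121% lower over all genes tested. The ligands Cxcl9, with 138, 378, 258 and 254 CPM against 7.68, 2.7, 5.61 and 15.2 CPM (5.04, SE 0.59, adjusted p = 0.00362), and Cxcl10, with 71.2, 148, 141 and 86.3 CPM against 10.1, 4.22, 5.34 and 15.9 CPM (3.65, SE 0.49, adjusted p = 0.00524), had the largest changes. Isg15, a ubiquitin-like protein, and Oas1a, an antiviral enzyme, rose less (1.39, SE 0.27, and 1.41, SE 0.28; adjusted p = 0.0289 and 0.0308). Outside the list, Ifi205, of the interferon-inducible p200 family, had 22.3, 32.2, 36.0 and 21.3 CPM against 1.88, 2.04, 1.89 and 1.97 CPM (3.84, SE 0.31, adjusted p = 0.000962). Irf7, a transcription factor of the interferon response, was not called (1.33, SE 0.32, adjusted p = 0.0697). The list's sum was lowest among T-cell-rich tumors in Smc3/Bcl6 tumor 2 (1444 CPM), within the T-cell-poor range of 995 to 1828 CPM.

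Promoter sequence from RefSeq (GRCm38.p6, 250 bases before to 50 after the start) was held for 208 of the higher and 14 of the lower genes. The interferon-response element, spelled GAAA, any 2 bases, GAAA and read on either strand, was found in 20 of 208 promoters of higher genes (9.6%) against 4.0% of all 27025 genes with a promoter and 4.0% of the genes tested. The AP-1 site TGANTCA was in 16.3% against 9.0% of all and 6.2% of those tested, and the RUNX site TGTGGT in 26.4% against 18.9% and 15.9%. Of the 10 motifs counted, the looser NF-kB pattern, GGG and CC with any 5 bases between, was in 62.5% of higher genes, between all genes (53.5%) and those tested (71.3%), and the stricter GGGA, any 2 bases, TTCC in 3.85% against 1.63% and 1.78%. Of the remaining motifs, GAS (TTCNNNGAA) was in 10.1% of higher genes against 9.55% of all and 8.36% of those tested. NFAT (TGGAAAA) was in 6.73% against 7.70% and 5.83%, and T-box (TCACACCT) in 1.44% against 1.48% and 1.08%. PU.1 (GAGGAAGT) was in 4.81% against 3.69% and 4.21%, and ETS (ACAGGAAGT) in 2.885% against 1.21% and 1.56%. In the 14 lower genes RUNX was in 42.9%, GAS in 14.3% and the stricter NF-kB in 7.14%, each above its share in higher genes. NFAT and PU.1 were in 7.14% each, also above. The looser NF-kB (57.1%) and the interferon-response element (7.14%) were below, and AP-1, T-box and ETS were in 0. A share of 14 genes moves widely with 1 gene. All these matches are descriptions of letters, not binding sites, and were not tested. The first set of 100-base stretches, all upstream of the start and on the gene's strand, shows the interferon-response element in capitals in 3 genes that rose together.
Cxcl10, chr5:92349040-92349139, minus strand: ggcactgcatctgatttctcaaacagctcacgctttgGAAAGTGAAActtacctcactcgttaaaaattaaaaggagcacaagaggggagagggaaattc
Isg15, chr4:156200836-156200935, minus strand, 3 overlapping matches: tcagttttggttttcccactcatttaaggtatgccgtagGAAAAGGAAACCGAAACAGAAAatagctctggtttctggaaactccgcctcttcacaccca
Ifi205, chr1:174031835-174031934, minus strand: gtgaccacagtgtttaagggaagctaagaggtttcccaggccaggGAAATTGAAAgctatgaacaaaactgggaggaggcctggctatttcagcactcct

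The second set shows the RUNX site, read on either strand, in the cytotoxic genes Cst7 and Prf1, and RUNX and AP-1 sites in Gzmb, again in capitals.
Cst7, chr2:150570180-150570279, plus strand: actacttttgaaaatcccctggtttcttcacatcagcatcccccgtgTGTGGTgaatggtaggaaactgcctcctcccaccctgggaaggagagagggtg
Prf1, chr10:61297659-61297758, plus strand: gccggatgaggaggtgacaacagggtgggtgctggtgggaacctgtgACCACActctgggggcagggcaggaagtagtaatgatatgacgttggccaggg
Gzmb, chr14:56262346-56262445, minus strand: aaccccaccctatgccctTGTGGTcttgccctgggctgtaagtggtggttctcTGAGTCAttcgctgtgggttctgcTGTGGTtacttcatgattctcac

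Macrophage genes did not move together. Their summed level was separate between the groups (3808 to 8954 CPM against 305 to 2960 CPM), but 2 of 18 were called higher and the median log2 fold change was 0.93. Over all genes tested 2.53% were called higher. In the T-cell-rich tumors most of the sum was Lyz2, lysozyme (ENSMUSG00000069516.7, chromosome 10 from 117277331 to 117282321), with 2508, 5913, 5362 and 4279 CPM against 114, 232, 97.7 and 119 CPM (5.00, SE 0.46, adjusted p = 0.00163). The monocyte receptor Ccr2 was the other call (3.32, SE 0.62, adjusted p = 0.0231), lost when any 1 of 6 tumors was left out. The complement gene C1qa overlapped, with 154 to 402 CPM against 9.72 to 192 CPM (1.86, SE 0.80, adjusted p = 0.362). The scavenger receptor Cd163 of resident macrophages was near 0 in T-cell-rich tumors (0.1 to 1.59 CPM) and had 66.8 and 67.8 CPM in Smc3/Bcl6 tumors 4 and 6 but 1.70 and 0.423 CPM in the other T-cell-poor tumors (adjusted p = 0.132). The erythroid genes summed to 12889 and 4391 CPM in those 2 tumors, to 46.0 and 138 CPM in the other T-cell-poor tumors, and to 1481, 125, 994 and 4428 CPM in the T-cell-rich tumors, and the part of the cells that hold these genes in the other results was not tested.

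The coagulation factor F10 (ENSMUSG00000031444.11, chromosome 8 from 13037308 to 13056676) had 24.3, 54.9, 82.2 and 36.4 CPM in the T-cell-rich and 1.34, 1.45, 1.22 and 1.34 CPM in the T-cell-poor tumors (5.20, SE 0.44, adjusted p = 0.00123). Wdr95, a gene of little known function, had 11.7, 13.2, 12.1 and 22.4 CPM against 0.357, 0.198, 0.270 and 0.0705 CPM (6.02, SE 0.54, adjusted p = 0.00148). Both were separate by a wide gap, but Wdr95 had 12 counts over the T-cell-poor tumors, and its direction was set by the filter.

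Smaller numbers of calls fell in the other non-lymphoid lists, to be set beside 2.53% called higher over all genes tested. With 1 or 2 calls in a list, they say little about a cell type. Of 11 dendritic cell genes (median -0.11), 1 was called, Clec9a of cross-presenting cells (2.14, SE 0.45, adjusted p = 0.0378, lost when any 1 of 7 tumors was left out). Xcr1 of the same cells had 5.93 to 20.9 CPM against 0.947 to 3.93 CPM (2.53, SE 0.56, not called, its adjusted p lying at the threshold), and Siglech of plasmacytoid cells had 4.52 to 10.2 CPM against 11.9 to 71.1 CPM (adjusted p = 0.108). Of 6 eosinophil and mast cell genes (median 1.34), 2 were called, the mast cell protease Cpa3 (4.41, SE 0.95, adjusted p = 0.0448) and Fcer1a, the IgE receptor alpha chain (adjusted p = 0.00995). Fcer1a had 0 counts in all 4 T-cell-poor tumors and 245 in the T-cell-rich ones, at least 78.1-fold higher against a floor of 3 counts over the group. Dcn, decorin of fibroblasts, was the 1 call among 8 stromal genes with a median of 1.32 (17.9 ± 8.92 against 0.857 ± 0.805 CPM, SD, n = 4 each; 4.35, SE 0.68, adjusted p = 0.0109). None of 6 endothelial (median -0.94), 11 neutrophil (median 0.55) or 9 erythroid genes (median -1.83) was called by edgeR, with 1, 0 and 4 at an unadjusted p below 0.05. DESeq2 called 1 endothelial and 3 erythroid genes lower, and limma called 0 in these lists.

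**Figure D5:**
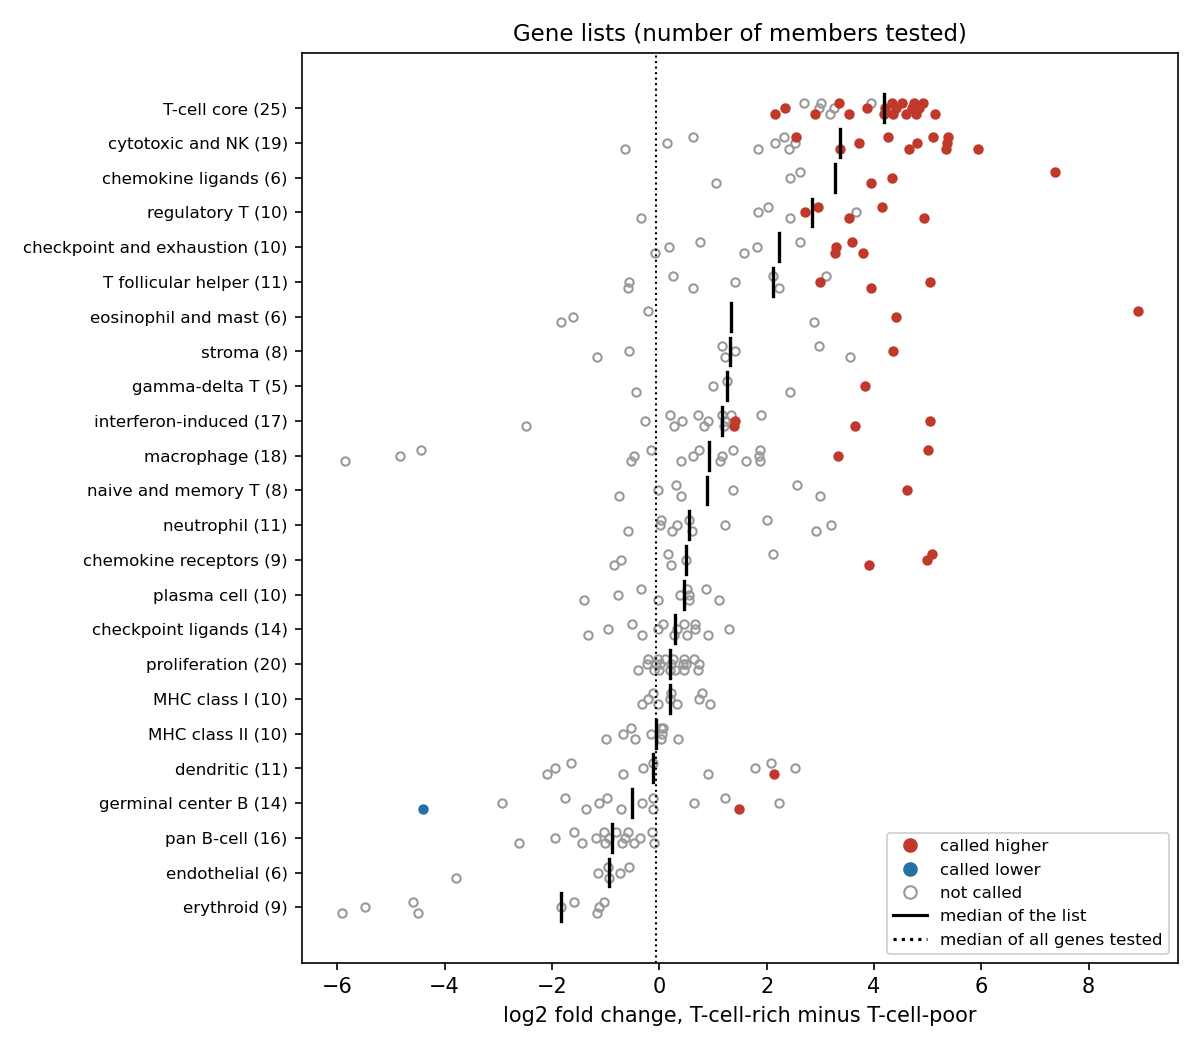
Log2 fold change (x axis) of each tested member of 24 gene lists (1 row per list, number tested in parentheses), filled where called, with the list's median as a bar and the median of all genes tested as a dotted line. T-cell core and cytotoxic lists have the highest medians (4.19 and 3.37), and proliferation and both MHC lists lie near 0 with no member called.

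Few genes of the B lineage passed the test. Pan B-cell genes had negative log2 fold changes for all 16 members tested (median -0.87), but 0 were called by edgeR, with 8 at an unadjusted p below 0.05. Of all genes tested, 45.6% had positive log2 fold changes. DESeq2 called 1 of them lower, and limma 0. Ms4a1, the antigen CD20, had 848, 960, 273 and 341 CPM in T-cell-rich and 1890, 2495, 1159 and 1031 CPM in T-cell-poor tumors (-1.44, SE 0.49, adjusted p = 0.235). Cd79a (-1.01, SE 0.39), Pax5 (-1.58, SE 0.51) and Spib (-1.18, SE 0.28) were also wholly lower in T-cell-rich tumors without being called (adjusted p from 0.0668 to 0.307). CPM are shares, so a larger share of T-cell and myeloid transcripts and fewer B-cell transcripts cannot be told apart here. The immunoglobulin chain Ighm had 6192, 7242, 9829 and 62829 CPM against 21441, 29342, 16738 and 24180 CPM (-0.09, SE 0.75, adjusted p = 0.960), and its direction turned under some other settings.

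Among 14 germinal center B-cell genes, 1 was called lower, 1 higher, and the median was -0.52. Over all genes tested 0.121% were called lower and 2.53% higher. Rgs13 (ENSMUSG00000051079.3, chromosome 1 from 144138654 to 144177372), a regulator of G protein signaling in germinal center B cells, had 0.163, 0.959, 0.0934 and 0.201 CPM in T-cell-rich and 9.65, 12.9, 2.7 and 6.98 CPM in T-cell-poor tumors (-4.40, SE 0.82, adjusted p = 0.0228). Its call was lost when any 1 of 3 tumors was left out. Rgs13 had 24 counts over the T-cell-rich tumors, and its direction was set by the filter. Fas, the death receptor that germinal center B cells share with activated T cells, was higher (45.9, 37.9, 45.1 and 71.2 CPM against 19.5, 18.7, 12 and 21.4 CPM; 1.48, SE 0.29, adjusted p = 0.0308). Bcl6, whose counts would include transgene reads that fall on the gene, had 287, 238, 173 and 147 CPM against 655, 452, 669 and 402 CPM (-1.36, SE 0.31, adjusted p = 0.0540). Nuggc was not called (-2.93, SE 0.68, adjusted p = 0.0642). The summed level of the list was 548 to 702 CPM against 863 to 1106 CPM. This separation rests on Bcl6, the largest member of the sum in every T-cell-poor tumor. Without Bcl6 the sums of the groups would overlap.

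Plasma cell genes (0 of 10), proliferation genes (0 of 20), MHC class I (0 of 10) and class II presentation genes (0 of 10) and checkpoint ligands (0 of 14) held no edgeR call, with medians from -0.06 to 0.46 and 1, 0, 0, 2 and 3 members at an unadjusted p below 0.05. DESeq2 called 1 plasma cell gene higher and 0 in the other 4 lists, and limma called 0. Mki67, a proliferation marker, had 50.8 to 243 CPM against 84.1 to 362 CPM (-0.40, SE 0.55, adjusted p = 0.713). B2m, the class I light chain, had 0.79 (SE 0.41, adjusted p = 0.433), and Ciita, the master regulator of class II genes, -0.996 (SE 0.35, adjusted p = 0.243). Cd274, the ligand PD-L1, had 180, 310, 287 and 47.5 CPM against 79.2, 128, 199 and 111 CPM (0.67, SE 0.53, adjusted p = 0.543), with the lowest value in Smc3/Bcl6 tumor 2.

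The 16 lower genes had a median log2 fold change of -1.79. Gpm6a, a membrane glycoprotein (ENSMUSG00000031517.7, chromosome 8 from 54954843 to 55060871), had 7.10, 4.85, 7.01 and 3.32 CPM in T-cell-rich and 16.3, 39.7, 64.3 and 45.9 CPM in T-cell-poor tumors (-2.90, SE 0.46, adjusted p = 0.0111). S1pr3, a receptor of sphingosine 1-phosphate, had 12.7, 11.1, 5.51 and 3.11 CPM against 39.4, 55.9, 64.1 and 82.1 CPM (-2.89, SE 0.47, adjusted p = 0.0126). These 2 were the only named lower genes called with every tumor left out in turn. Rubcn, an inhibitor of autophagy, was uniform within groups (133, 161, 147 and 139 CPM; mean 145 ± 12 against 322 ± 12.2 CPM, SD, n = 4 each; -1.15, SE 0.19, adjusted p = 0.0150). Rasgrp3, a Ras activator of B-cell receptor signaling, had 94.2, 160, 133 and 107 CPM against 291, 336, 307 and 404 CPM (-1.44, SE 0.25, adjusted p = 0.0164), and Bcl11a, a B-lineage transcription factor, 97.8 ± 27.7 against 228 ± 24.3 CPM (-1.22, SE 0.27, adjusted p = 0.0470).

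The growth factor Fgf11 (-2.77, SE 0.51), Nxpe2 (-1.65, SE 0.30), the Cdc42 exchange factor Fgd6 (-1.29, SE 0.25), the adaptor Bcar3 (-1.20, SE 0.24) and the kappa joining segment Igkj1 (-1.88, SE 0.38) had adjusted p from 0.0213 to 0.0342. Fgf11 had 33 counts over the T-cell-rich tumors, and its direction was set by the filter. The lower genes had a median exon length of 5034 bases, the higher genes 2495 and all tested 4158. With an offset for exon length, 15 genes were lower, 9 of them among the 16.

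Smc3/Bcl6 tumor 5, in neither group, gives values the ranking did not place in a group. Its CD3 sum was itself above that of every T-cell-poor tumor. The counts that follow are a description, with no share over all genes tested to set beside them. This tumor lay above all 4 T-cell-poor tumors for 307 of the 336 higher genes, within the T-cell-rich range for 125 and within the T-cell-poor range for 23. Its median place was 0.668 on a scale from 0, the T-cell-poor mean, to 1, the T-cell-rich mean of log2 CPM. For the 16 lower genes it was within the T-cell-poor range for 3, and its median place was 0.475. Its Cd8a (46.5 CPM) and Gzmb (84.0 CPM) lay between the groups, its Lyz2 (5845 CPM) and Foxp3 (58.9 CPM) among or above the T-cell-rich tumors, and its Fgd6 (48.3 CPM) above every other tumor.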

How the data were processed

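RNA from 9 lymphomas (3 Bcl6, 6 Smc3/Bcl6) had been sequenced by the authors with Illumina TruSeq kits, aligned with STAR to mm10 and GENCODE transcripts within the nf-core RNA-seq pipeline, and counted per gene with featureCounts; strand settings are not given in the sources used here. The deposited values are raw read counts without normalization, and per the labels the authors used DESeq2 1.28.1 in R 4.0.2. All 9 columns matched a sample by name (0 columns without one), and GENCODE M21 (GRCm38), the source of symbols, positions and exon lengths, held 97.9% of the 41128 gene identifiers.

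The T-cell groups were formed by the CD3 sum described in the report. The groups, gene lists and tests were chosen with earlier results of these data known. The counts were analysed with edgeR 4.0.16 in R 4.3.3: TMM over 9 tumors, edgeR's filter on low counts by group, glmQLFit and glmQLFTest on 8 tumors without covariates, leaving out Cd3d, Cd3e and Cd3g, and Benjamini-Hochberg adjustment over all genes tested with a threshold of 0.05. The biological coefficient of variation was 0.516. Log2 CPM used a prior count of 2, and log2 ratios a pseudocount of 1 CPM on CPM by column total. Single measures were tested by exact two-sided permutation over 70 splits, as 1 family of 6. Named genes are the 10 higher and 10 lower with the smallest p among called genes whose groups do not overlap, variable gene segments aside, and the most abundant, lowest-p and defining members of 24 lists; Smc3 was named as the targeted gene, and Bcl11a and the genes of the closing observations were added after their values were seen. Some members of the lists are not reported here by name. "Other fits" for a gene are up to 21 alternative models.

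On simulated counts of 13029 genes of which 200 were given a difference of 3 on the log2 scale, 91% of these were recovered by edgeR with 8 unchanged genes called, and 97% by DESeq2 with 63. Alternatives were DESeq2 1.42.0, limma 3.58.1, other scalings, filters, covariates and thresholds, and each tumor left out; an exon length offset and the genotype interaction were added after seeing the data. Nothing in the labels says that the tumors are from separate litters or cages, so p-values measure the spread between these tumors only. Precision is set by 4 tumors a group more than by counting error.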

Additional observations from a re-analysis of the deposited data

Results flagged for a closer look

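Single tumors far from the other 3 of their group were looked for in 106 sets of 4 values (Dixon's criterion, which flags about 1 in 20 sets by chance, or 5.3 here), and 12 were found, 8 of them in Smc3/Bcl6 tumor 2. In that tumor the summed CPM of pan B-cell genes was 71273 (the other T-cell-rich tumors reached 14106), of MHC class II genes 58707 (27956) and of MHC class I genes 35926 (19778). Of its pan B-cell sum Ighm was 62829 CPM, while its Pax5 (2.81 CPM) was the lowest of all tumors. Its cytotoxic and NK-cell genes summed to 7579 CPM (5229), chemokine ligands to 3157 CPM (946), and mitosis and DNA replication genes to 3954 CPM (2988). Its checkpoint and exhaustion genes summed to 374.2 CPM, below 553 in the next tumor, and its TMM factor of 0.7286 was below 1.05.

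The neutrophil genes summed to 2246 CPM in Bcl6 tumor 3, against at most 171 in the other T-cell-rich tumors, and to 934.7 CPM in Smc3/Bcl6 tumor 4, against at most 254 in the other T-cell-poor tumors. Eosinophil, basophil and mast cell genes summed to 152.4 CPM in Bcl6 tumor 3 (42.2 in the next), and plasma cell genes to 9083 CPM in Smc3/Bcl6 tumor 1 (4706 in the next).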

How the results depend on the processing

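No paired analysis was possible because the T-cell-rich and T-cell-poor tumors share 0 replicate numbers. Against 336 higher and 16 lower genes, DESeq2 gave 699 and 180, limma with a quality weight per tumor (0.105 for Smc3/Bcl6 tumor 2) 891 and 354, a mean of at least 10 CPM 169 and 10, adjustment for tissue label 102 and 31, and the thresholds of the study (unadjusted p below 0.1, absolute log2 fold change above 0.56) 1469 (11.1% of genes tested) and 1281 (9.66%). The lower genes numbered 9 with total counts, 10 without immunoglobulin and T-cell receptor genes, 4 with genotype as a covariate and 52 at an adjusted p below 0.1, where the higher genes stayed within 1.5 times the main number. Leaving out each tumor in turn gave 178 to 492 higher and 3 to 49 lower genes. Of calls, 95.5% were higher, but 79.5% with DESeq2, 71.6% with quality weights and 76.7% with the tissue label. The cause was not tested. The 79 named called genes kept their direction in every fit; of 68 higher ones, 35 stayed called in all of them and 39 with the tissue label, and of 11 lower ones 0 and 1. Calls lost with any 1 of at least 5 tumors left out include Bcl11b, Tox2, Ikzf2, Tigit, Isg15, Oas1a, Clec9a, Cpa3, Ccr2, Ccr8, Fas, Rubcn, Fgf11, Nxpe2, Fgd6, Bcar3, Igkj1 and Bcl11a, and those lost only with the tissue label include Foxp3, Nkg7, Thy1, Icos, Nr4a2 and Fcer1a.

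With 1 tumor left out, where the smallest p is 0.0571, the differences ranged from -1.88 (without Smc3/Bcl6 tumor 4) to 18.9 percentage points for the Igkv share, -8.57 to -2.86 for the Trbv share, 0.96 to 2.13 for the CD8 to CD4 ratio, and -1.96 to -0.97, -4.29 to -2.37 and 0.25 to 0.92 for Foxp3, Pdcd1 and Gzmk. No other setting turned one of these. The sign also turned for Ighm with DESeq2 size factors (0.011), the upper quartile (0.19) and without Bcl6 tumor 2 (0.22), Bcl6 tumor 3 (0.15), Smc3/Bcl6 tumor 3 (0.20) or Smc3/Bcl6 tumor 4 (0.05; -1.56 without Smc3/Bcl6 tumor 2), for Mki67 with the tissue label (0.43), and for Ncr1 with limma (0.18), quality weights (1.27) or without Smc3/Bcl6 tumor 4 (0.91; -1.13 without Smc3/Bcl6 tumor 3).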

Other observations

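Among the higher genes that no list held, several are products of activated myeloid cells; these were picked after their values were seen and are given as a description. Saa3, an acute-phase serum amyloid, had 492, 1025, 1770 and 558 CPM in T-cell-rich and 5.89, 37.5, 6.49 and 36.4 CPM in T-cell-poor tumors (log2 fold change 5.47, SE 0.83, adjusted p = 0.00920). The lectin Clec4e, which senses dead cells and mycobacterial lipids, had 117, 238, 259 and 59.99 CPM against 6.43, 6.00, 2.91 and 11.1 CPM (4.67, SE 0.60, adjusted p = 0.00468). Also higher were Acod1, which makes itaconate (4.22, SE 0.81), Gpnmb of lipid-laden macrophages (5.70, SE 0.71), complement C3 (4.14, SE 0.68), the interleukin-12 subunit Il12b (4.08, SE 0.53), the interleukin-1 antagonist Il1rn (3.82, SE 0.44) and the cytokines Il1a (2.56, SE 0.50) and Il1b (2.20, SE 0.48), with adjusted p from 0.00362 to 0.0470. The calls of Acod1, Il1a and Il1b were lost when any 1 of 5, 6 and 7 tumors was left out, and that of C3 without Bcl6 tumor 1 or Smc3/Bcl6 tumor 6. Nos2, nitric oxide synthase, had 71.2, 221, 196 and 15.6 CPM against 3.57, 0.0659, 2.7 and 8.74 CPM and was not called (adjusted p = 0.0620).

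Also picked after their values were seen, with no list or count of like genes, were F7, a coagulation factor (3.64, SE 0.67), the protein C receptor Procr (4.34, SE 0.67) and the thrombin receptor F2r (3.92, SE 0.65), with adjusted p from 0.0102 to 0.0213. The call of F7 was lost when any 1 of 4 tumors was left out, and that of F2r without Bcl6 tumor 1 or Smc3/Bcl6 tumor 6. The mast cell protease Tpsb2 had 20.6, 22.9, 23.7 and 2.71 CPM in T-cell-rich tumors and 0 counts in all 4 T-cell-poor tumors, at least 348-fold higher against a floor of 3 counts over the group, and its call was lost with the tissue label as a covariate. Another, Cma1, had 4.72 to 20.2 CPM against 0 to 0.659 CPM (adjusted p = 0.0130), a call lost with that covariate and without Bcl6 tumor 1 or Smc3/Bcl6 tumor 6. Genes of T cells outside the lists, picked in the same way, included the costimulatory receptors Tnfrsf9 (143, 148, 186 and 166 CPM against 4.12 to 14.8 CPM; 4.26, SE 0.45) and Cd27 (3.95, SE 0.54; lost with the tissue label) and the integrin Itgae (2.77, SE 0.56), whose call was lost when any 1 of 7 tumors was left out.

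Pairs of leading variable genes recurred across tumors of both groups. Igkv3-4 led with Ighv1-64 in Bcl6 tumors 1 and 2 and Smc3/Bcl6 tumor 3, and Igkv5-39 with Ighv3-1 in Bcl6 tumor 3 and Smc3/Bcl6 tumors 1 and 5. The Ighv shares were 21.9%, 21.2% and 17.0% in the first set and 58.9%, 57.1% and 77.6% in the second. Smc3/Bcl6 tumor 2, which led with Ighv8-12 at 88.0% of Ighv counts, also had 477 CPM of Lum, a collagen-binding proteoglycan, against 0 to 4.67 CPM in the other 8 tumors.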
